A study of Homo sapiens with 6 samples.

Results

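The phagocyte NADPH oxidase was followed through the genes of 5 of its components, *CYBB*, *CYBA*, *NCF1*, *NCF4* and *RAC2*, which were taken by symbol from the 30017 genes of the count table. All 5 were among the 14758 genes with enough counts to be tested. Their transcripts were measured by RNA-seq of total RNA, after removal of ribosomal RNA, in the BLaER1-CTCF-mAID subclone of a human B cell leukemia line that converts into induced macrophages (iMacs) when 17β-estradiol activates an exogenous CEBPA, with IL-3 and CSF-1 in the medium. In this subclone CTCF carries an auxin-inducible degron, in the controls as well, so that adding indole-3-acetic acid (IAA), an auxin, leads to loss of the CTCF protein. There were 6 libraries, in biological replicates of 2: cells before induction (0 h), converted cells that received no IAA (96 h control), and converted cells given IAA from the start of induction (96 h CTCF-depleted). All libraries come from the same degron subclone, and cells without the degron that received IAA were not analysed here, so that effects of IAA and of the loss of CTCF cannot be told apart.

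The oxidase is the enzyme with which neutrophils and macrophages make superoxide. Its catalytic core is a flavocytochrome in the membrane, made of gp91phox, encoded by *CYBB*, and p22phox, encoded by *CYBA*, and each partner stabilizes the other as protein. On activation, cytosolic components move to this core, among them the organizer p47phox (*NCF1*), the phosphoinositide-binding p40phox (*NCF4*) and the small GTPase Rac2 (*RAC2*), and electrons then pass from NADPH to oxygen. Loss of the core or of the cytosolic organizer causes chronic granulomatous disease. Phagocytes show high levels of *CYBB* and *NCF1*, whereas *CYBA* and *RAC2* are found across blood cell lineages.

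The components behaved unequally. *CYBB* went from nearly no reads at 0 h to one of the genes with the most counts in the 96 h control libraries, *NCF1* rose strongly and *RAC2* moderately, *CYBA* stayed under the fold threshold, and *NCF4* fell. When CTCF was depleted, *CYBB* reached 0.526 times its control level, whereas the other members were not called lower.

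The count table does not separate genes beyond the annotation used for counting, which matters for *NCF1*. The gene lies on chromosome 7 (74774011 to 74789315, plus strand, hg38) and has near-identical pseudogene copies on the same chromosome, *NCF1B* (73220646 to 73235787, plus strand) and *NCF1C* (75156639 to 75172044, minus strand). In hg38, the start of exon 2 tells the gene from both copies. It is shown here because reads can be told apart only across positions that differ. Whether the copies in this cell line carry the same difference was not examined. In the sequences below, taken from hg38 and written 5′ to 3′ on the strand of each gene, the GT units at the start of the exon are in capitals and all following bases are shared.

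NCF1: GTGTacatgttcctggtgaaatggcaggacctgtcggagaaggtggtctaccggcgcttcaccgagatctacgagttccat
NCF1B: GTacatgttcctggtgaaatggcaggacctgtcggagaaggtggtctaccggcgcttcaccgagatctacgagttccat
NCF1C: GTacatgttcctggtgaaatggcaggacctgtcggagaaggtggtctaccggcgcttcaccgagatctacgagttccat

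Exon 2 of *NCF1* (chr7:74777267-74777347) spans 81 bases with 2 GT units, and the matching stretches of *NCF1B* (chr7:73223878-73223956) and *NCF1C* (chr7:75168632-75168710) span 79 bases with 1 GT unit each. The remaining 77 bases are identical in the 3 genes. Of the 1250 windows of 100 bases along the canonical *NCF1* transcript, 794 (63.5%) occur unchanged in at least one copy. The number of windows found in *NCF1B* was 657 and that in *NCF1C* was 520. Along the canonical *NCF1B* transcript, fewer windows were shared, with 256 of 1155 (22.2%) found in *NCF1* or *NCF1C*. Along that of *NCF1C*, 687 of 1328 windows (51.7%) were found in *NCF1* or *NCF1B*. Counts of *NCF1* are therefore given with those of the copies below.

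Stretches before the start site are shown for the 3 members in the RefSeq promoter table (GRCh38.p14), since *CYBB* and *NCF1* rose far more than *CYBA*. Each is written 5′ to 3′ on the strand of the gene and ends at the last base before the annotated start. Matches to GAGGAA (a core of sites for the myeloid factor PU.1, encoded by *SPI1*), TTGCNNAA (a core of C/EBP sites) and GATAAG (a core of GATA sites), searched on both strands, are in capitals.

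CYBB: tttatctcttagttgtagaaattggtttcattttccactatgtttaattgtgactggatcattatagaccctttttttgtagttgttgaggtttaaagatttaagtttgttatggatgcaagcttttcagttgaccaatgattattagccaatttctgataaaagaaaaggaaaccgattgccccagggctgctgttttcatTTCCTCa
NCF1: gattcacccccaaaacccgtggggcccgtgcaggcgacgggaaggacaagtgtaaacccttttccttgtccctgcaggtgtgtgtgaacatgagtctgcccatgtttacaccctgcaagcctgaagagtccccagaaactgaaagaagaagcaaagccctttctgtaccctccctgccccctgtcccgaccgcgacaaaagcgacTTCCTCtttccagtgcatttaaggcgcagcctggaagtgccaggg
CYBA: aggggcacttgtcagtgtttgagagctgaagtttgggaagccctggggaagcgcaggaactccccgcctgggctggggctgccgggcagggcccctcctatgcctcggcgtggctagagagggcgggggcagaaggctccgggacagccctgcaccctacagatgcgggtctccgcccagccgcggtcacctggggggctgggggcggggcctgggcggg

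The *CYBB* stretch (chrX:37779809-37780017, plus strand) and the *NCF1* stretch (chr7:74773761-74774010, plus strand) each hold 1 match to GAGGAA, on the opposite strand in both, whereas the *CYBA* stretch (chr16:88651084-88651303, minus strand) holds none. Over the 250 bases before the start, 23.6% of the 35116 promoters of the table have this match. TTGCNNAA occurs in 9.05% and GATAAG in 5.65% of those promoters, and neither was found in the 3 stretches. These matches describe letters only, and binding was not measured here.

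The libraries hold between 9273470 and 12718780 counts. All 7 macrophage markers were called higher in the 96 h control than at 0 h and all 7 B cell markers lower. Of all tested genes, 25.4% were called higher and 22.9% lower in this comparison. The macrophage markers summed to 35.0 to 38.8 CPM (counts relative to library size, with TMM scaling) at 0 h, 4990 to 5240 in control and 4870 to 4910 in CTCF-depleted libraries. Most of the sum at 96 h was *LYZ*, at a mean of 4527 CPM in control and 4158 CPM in depleted libraries. Upon depletion 1 of the 7 macrophage markers was called higher, *ITGAM* at 128.1 CPM in control and 284.7 CPM in depleted libraries, and 0 lower. Of all tested genes, 5.41% were called higher and 7.03% lower. *CD14*, *CD163*, *CD68* and *TYROBP* had log2 fold changes of 0.46, 0.28, 0.28 and 0.18, none of them called. *CSF1R* (273.7 CPM in control, 221.6 CPM in depleted libraries) and *LYZ* had -0.30 and -0.12, also not called. B cell markers stood at 2840 CPM, 347 to 360 CPM and 379 to 392 CPM, so that *CD79A*, *CD79B* and others were still detected at 96 h. Upon depletion 1 of the 7 B cell markers was called higher, *CD22* at 34.8 against 96.6 CPM, and 2 lower, *VPREB1* and *RAG1*. The shares over all tested genes upon depletion were 5.41% higher and 7.03% lower. The 10 neutrophil markers, whose cells also carry the oxidase, summed to 1.44 to 2.03, 147 to 148 and 117 to 127 CPM. Of these, 7 could be tested, and all 7 were called higher in the control conversion, where 25.4% of all tested genes were. *AZU1*, *CTSG*, *CSF3R* and *CAMP* lay above 10 CPM on average over the 96 h libraries, whereas the defining gene *FCGR3B* had no count in any library. In bulk RNA, fewer cells of a type and less RNA per cell cannot be told apart. *CTCF* had 2235 and 2849 counts at 0 h, 2048 and 1875 in control and 2062 and 2051 in CTCF-depleted libraries, and since the degron acts on the protein, these counts do not show how far CTCF was lost.

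**Figure D1:**
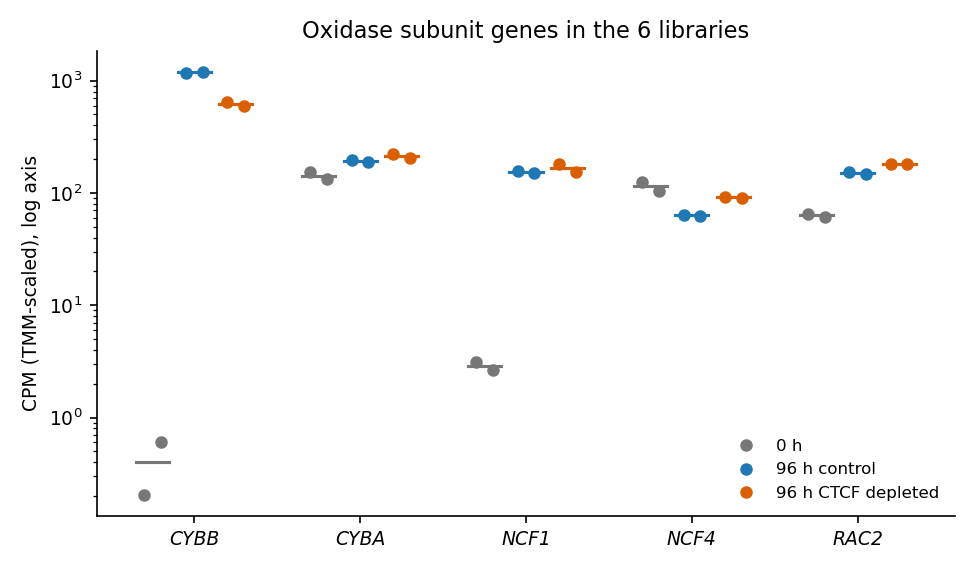
CPM (TMM-scaled, log axis) of the 5 oxidase genes in the 6 libraries, with a point for each replicate and a line at the mean of each group. *CYBB* spans from 0.206 CPM at 0 h to 1198 CPM at 96 h, whereas *CYBA*, *NCF4* and *RAC2* stay between 61.3 and 223.1 CPM.

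A gene was called where the adjusted p was under 0.01 and the log2 fold change exceeded 0.6 in either direction. For 2 against 2 libraries the smallest two-sided p of an exact permutation test is 0.333. The p-values below come from edgeR, which draws its estimate of the spread from all genes.

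For conversion with CTCF, the 96 h control was compared with 0 h to ask which components are acquired with the macrophage state. Of the 5 members, 3 were called higher (*CYBB*, *NCF1* and *RAC2*) and 1 lower (*NCF4*), where 25.4% of all tested genes were called higher and 22.9% lower. The median log2 fold change of all tested genes was 0.015.

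*CYBB*, the catalytic subunit on chromosome X (37780018 to 37813461, plus strand), had 2 and 8 counts at 0 h and 13334 and 12933 counts in the 96 h control libraries. In CPM these are 0.206 and 0.6 at 0 h against 1177 and 1198 in control, or 0.403 ± 0.278 against 1187 ± 14.8 (SD, n = 2 each). The 0 h libraries were low in both replicates, and the groups did not overlap. The log2 fold change was 11.38 (standard error, SE, 0.11, edgeR quasi-likelihood adjusted p = 3.72e-60). Here and below, the SE is the absolute log2 fold change divided by the square root of the F statistic of the test. For genes with few counts at 0 h this SE understates the uncertainty of the fold change. Because 0 h rests on 10 counts in all, the ratio of the summed counts, scaled for library size, was 2730 with a 95% interval of 1490 to 5700, which covers counting error only. The log2 fold change was 10.92 without the first 0 h library and 12.37 without the second. By mean CPM, *CYBB* ranked 13923rd of the 14758 tested genes at 0 h and 42nd in the 96 h control.

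*CYBA*, which encodes the partner that stabilizes gp91phox, lies on chromosome 16 (88643275 to 88651083, minus strand). It had 1481 and 1762 counts at 0 h and 2231 and 2050 in control, corresponding to 152.8 and 132.2 CPM against 196.9 and 189.8 CPM. Both control libraries lay above both 0 h libraries. The log2 fold change of 0.45 (SE 0.06, edgeR quasi-likelihood adjusted p = 2.81e-10) passed the p-value threshold but not the fold threshold. The transcript of the membrane partner was therefore present before conversion, at 142.5 ± 14.6 CPM.

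Among the cytosolic components, *NCF1* had 30 and 35 counts at 0 h and 1767 and 1615 in control, or 2.86 ± 0.332 against 152.8 ± 4.52 CPM. The groups were far apart, with a log2 fold change of 5.75 (SE 0.11, edgeR quasi-likelihood adjusted p = 1.36e-45) and a ratio of scaled counts of 54.1 (95% interval 42.4 to 70.3). *NCF4*, on chromosome 22 (36860988 to 36878017, plus strand), went the other way, with 1208 and 1398 counts at 0 h and 727 and 680 in control. Its level fell from 124.6 and 104.9 CPM to 64.2 and 63.0 CPM without overlap, a log2 fold change of -0.85 (SE 0.07, edgeR quasi-likelihood adjusted p = 5.48e-16). The binder of phosphoinositides was thus the one member that was higher in the B cell state.

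*RAC2*, the blood cell member of the Rac GTPases, lies on the same chromosome (37225270 to 37259594, minus strand) and had 629 and 817 counts at 0 h and 1759 and 1602 in control. Levels of 64.9 and 61.3 CPM became 155.2 and 148.4 CPM, with no overlap between groups. The log2 fold change was 1.27 (SE 0.06, edgeR quasi-likelihood adjusted p = 1.65e-26). *RAC1*, the widely expressed paralog, was at 159.2 ± 5.41 CPM at 0 h and 159.4 ± 0.650 CPM in control (log2 fold change 0.00, edgeR quasi-likelihood adjusted p = 0.952).

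**Figure D2:**
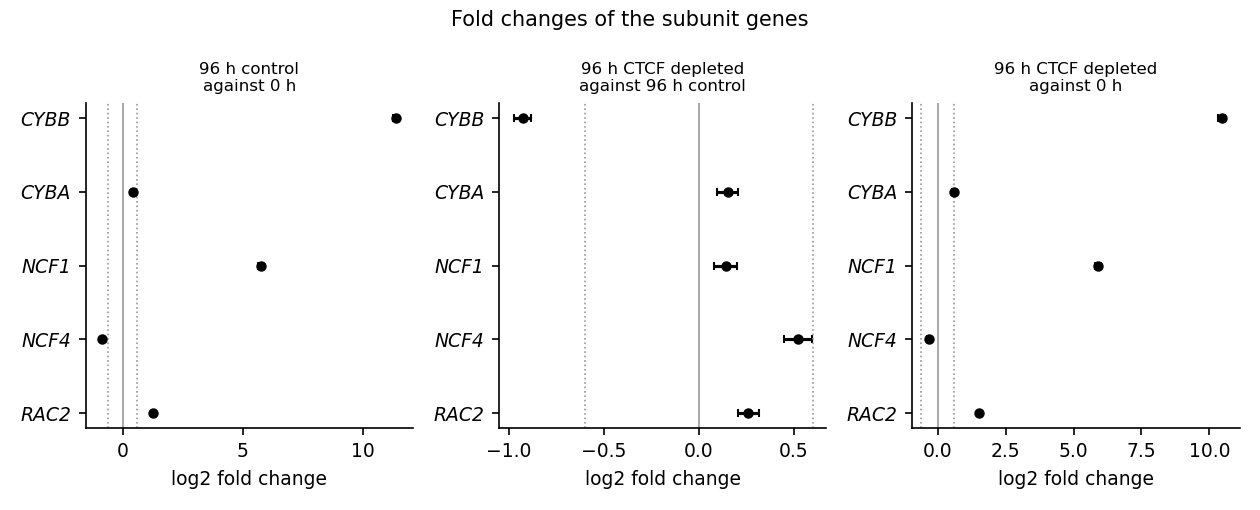
Log2 fold changes of the 5 genes in each of the 3 comparisons, with dotted lines at the fold threshold of 0.6. Bars are 1 SE, derived from the edgeR F statistic, and the axes differ between panels. In the depletion panel *CYBB* lies at -0.93 and the other 4 genes between 0.14 and 0.52.

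For CTCF depletion at 96 h, the CTCF-depleted libraries were compared with the controls of the same time point. At both thresholds, 1 of 5 members was called lower (*CYBB*) and 0 higher, where 7.03% of all tested genes were called lower and 5.41% higher. The median over all tested genes was -0.031. With the p-value threshold alone, *NCF4* and *RAC2* were higher and *CYBB* lower, where 12.0% of all genes were higher and 17.4% lower.

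The counts of *CYBB* were 13334 and 12933 in control, and 7000 and 6511 upon depletion, or 1177 and 1198 CPM against 648.1 and 599.8 CPM. Both depleted libraries lay below both controls, at 624.0 ± 34.2 CPM on average. The log2 fold change was -0.93 (SE 0.05, edgeR quasi-likelihood adjusted p = 2.53e-24), which is a change of -47.4% in the fitted level. *CYBB* thereby went from rank 42 to rank 150 of the tested genes by mean CPM, and its fold change was the 774th lowest. The gene remained strongly expressed, and its level in depleted cells was still 1440 times that at 0 h by scaled counts (95% interval 781 to 3000). Of the 7 neutrophil markers tested, 1 was called lower upon depletion and 0 higher, where 7.03% and 5.41% of all tested genes were. Of a list of 11 macrophage genes, 2 were called lower, *MRC1* (-1.33) and *CTSB* (-0.66), and 1 higher, *ITGAM* (1.15), against the same background. The part of such shifts in the change of *CYBB* was not tested.

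The partner *CYBA* had 2231 and 2050 counts in control and 2410 and 2246 in depleted libraries, at 196.9 and 189.8 against 223.1 and 206.9 CPM. The depleted libraries were slightly above the controls, with a log2 fold change of 0.15 (SE 0.05, edgeR quasi-likelihood adjusted p = 0.0203), which passed neither threshold. The membrane subunits therefore differed in the sign of their fold change, and the ratio of their counts within a library does not depend on scaling. Counts of *CYBB* per count of *CYBA* were 5.98 and 6.31 in control and 2.90 and 2.90 in depleted libraries, after 0.00135 and 0.00454 at 0 h.

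*NCF1* had 1767 and 1615 counts in control and 1965 and 1685 in depleted libraries. At 155.9 and 149.6 CPM against 181.9 and 155.2 CPM, the second depleted library lay between the controls (log2 fold change 0.14, SE 0.06, edgeR quasi-likelihood adjusted p = 0.0654), so that no difference was called for the organizer subunit. *NCF4* had 727 and 680 counts in control and 989 and 988 in depleted libraries, and its 64.2 and 63.0 CPM compared with 91.6 and 91.0 CPM. The depleted libraries were higher without overlap, by a log2 fold change of 0.52 (SE 0.07, edgeR quasi-likelihood adjusted p = 3.15e-08), which lies under the fold threshold. With 1759 and 1602 counts against 1965 and 1976, the GTPase gene *RAC2* was likewise above its controls in both depleted libraries, at 182.0 ± 0.0606 against 151.8 ± 4.87 CPM (log2 fold change 0.26, SE 0.06, edgeR quasi-likelihood adjusted p = 1.08e-04).

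**Figure D3:**
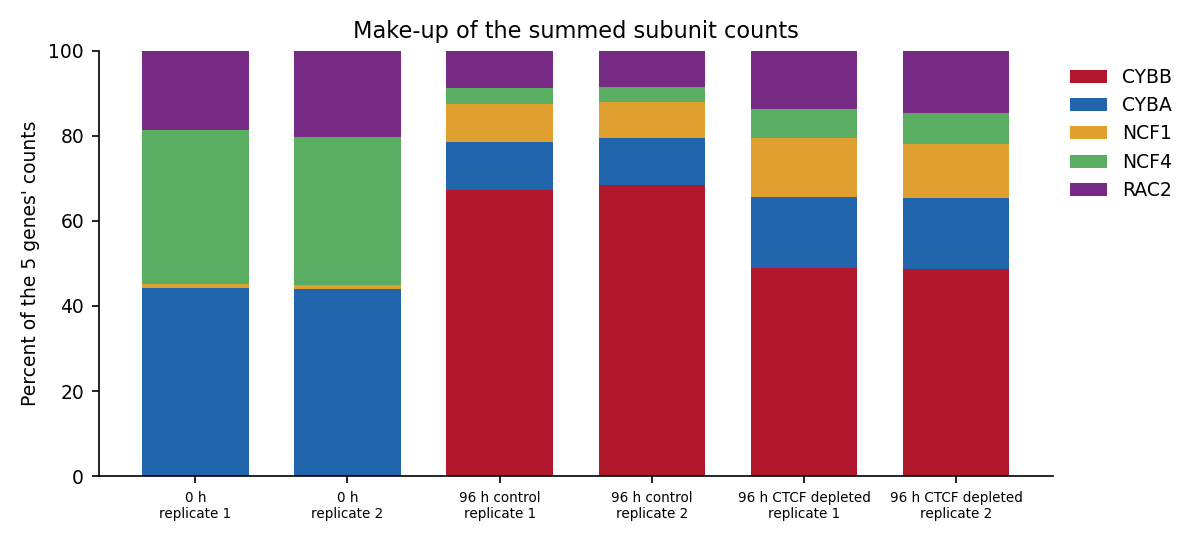
Share of each gene in the summed counts of the 5 oxidase genes, in percent, for each library. *CYBB* takes 67.3% and 68.5% in control and 48.9% and 48.6% in CTCF-depleted libraries, and under 0.2% at 0 h.

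The make-up of the summed oxidase counts shifted accordingly. The 5 genes together had 3350 and 4020 counts at 0 h, of which *CYBA* took 44.2% and 43.8%, *NCF4* 36.1% and 34.8% and *CYBB* 0.0597% and 0.199%. In control libraries, the sum was 19818 and 18880 counts and *CYBB* took 67.3% and 68.5%. In depleted libraries, the sum was 14329 and 13406 counts, *CYBB* took 48.9% and 48.6%, and the share of each of the other members was above that in both controls. These shares follow counts, to which long transcripts contribute more.

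To compare the members with each other, levels were divided by length, which the ranks and shares above leave out. With the union of annotated exons as length, control levels in CPM per kilobase were 247.0 ± 3.07 for *CYBB*, 58.0 ± 1.86 for *RAC2*, 46.5 ± 1.20 for *CYBA*, 44.8 ± 1.32 for *NCF1* and 28.4 ± 0.376 for *NCF4*. *CYBA* and *NCF1*, neighbours in this order, differed by less than the sum of their SDs. The same order held in depleted libraries, at 130.0 ± 7.11, 69.6 ± 0.0232, 51.7 ± 2.76, 49.4 ± 5.54 and 40.8 ± 0.177 CPM per kilobase, where *CYBA* and *NCF1* again were closer than that. At 0 h *NCF4* led with 51.2 ± 6.24, followed by *CYBA* with 34.2 ± 3.50, *RAC2* with 24.1 ± 0.974, *NCF1* with 0.838 ± 0.0973 and *CYBB* with 0.0839 ± 0.0579 CPM per kilobase. The order depends on the length used. With canonical transcripts, where *CYBA* has 692 bases in place of 4161, *CYBA* and *CYBB* were level in control libraries, at 279 ± 7.21 and 278 ± 3.45 CPM per kilobase, and *NCF1* lay above *RAC2*, at 113 and 103 in control and 125 and 124 in depleted libraries. With the longest transcript, *CYBA* (72.3) and not *NCF4* (69.8) led at 0 h, by less than their spread. Per kilobase of exon union, the ratio of *CYBB* to *CYBA* was 5.32 ± 0.203 in control and 2.51 ± 0.00345 in depleted libraries, whereas with canonical transcripts it was 0.994 ± 0.0380 and 0.470 ± 0.000645. The length scales the ratio alike in both groups and has no bearing on its change.

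For conversion without CTCF, depleted cells at 96 h were compared with the same 0 h libraries that served the control comparison, so that both conversions share them. Of the members, 3 were called higher (*CYBB*, *NCF1* and *RAC2*) and 0 lower, where 27.2% of all tested genes were called higher and 25.2% lower. The log2 fold change of *CYBB* was 10.45 (SE 0.12, and 10.02 or 11.47 without the first or second 0 h library), that of *NCF1* 5.89 (0.11) and that of *RAC2* 1.53 (0.06), beside 11.38, 5.75 and 1.27 in the presence of CTCF. *CYBA* had 0.60 (SE 0.06, edgeR quasi-likelihood adjusted p = 1.4e-14), which rounds to the fold threshold and lies just under it, so that its call moves with small changes in the processing. Without the first 0 h library the value was 0.73, without the second depleted library 0.68 and without the second control library 0.63, all of which are past the threshold. *NCF4* had -0.32 (SE 0.07, edgeR quasi-likelihood adjusted p = 3.48e-05) and was not called lower, beside -0.85 with CTCF.

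**Figure D4:**
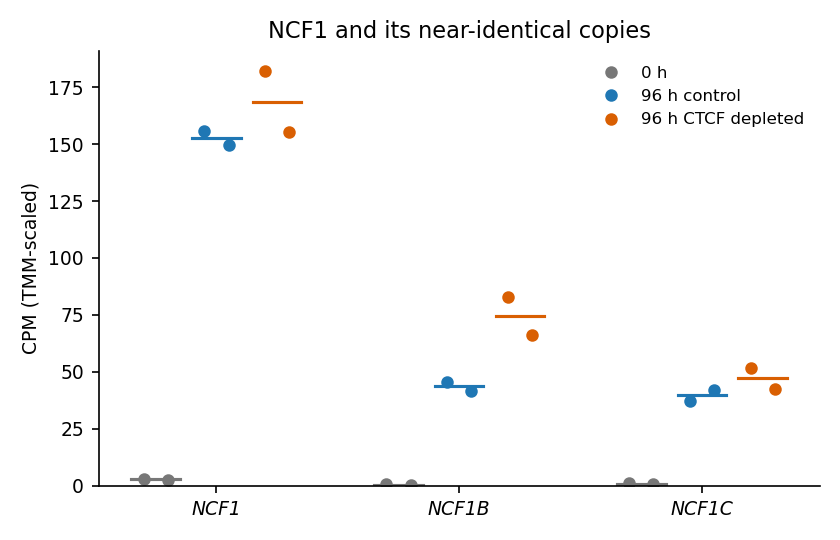
CPM (TMM-scaled) of *NCF1* and its copies *NCF1B* and *NCF1C*, with a point for each library and a line at the group mean. *NCF1B* rises from 43.6 CPM in control to 74.6 CPM in CTCF-depleted libraries, whereas *NCF1* lies at 152.8 and 168.6 CPM with overlapping points.

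The copies of *NCF1* were counted as genes of their own. *NCF1B* had 6 and 2 counts at 0 h, 516 and 450 in control and 895 and 719 in depleted libraries, and *NCF1C* had 10 and 7, 422 and 456, and 560 and 463. Conversion with CTCF raised both, by log2 fold changes of 6.93 (SE 0.22) and 5.73 (SE 0.20), beside 5.75 (SE 0.11) for *NCF1*. With 8 counts of *NCF1B* at 0 h in all, its ratio of scaled counts was 126 with a 95% interval of 63.5 to 292. Upon CTCF depletion *NCF1B* was called higher, with 74.6 ± 11.8 against 43.6 ± 2.73 CPM (log2 fold change 0.77, SE 0.08, edgeR quasi-likelihood adjusted p = 3.23e-11), and *NCF1C* was not called (0.25, edgeR quasi-likelihood adjusted p = 0.0244). Within the sum of the 3 genes, *NCF1B* took 19.1% and 17.9% in control and 26.2% and 25.1% in depleted libraries, and *NCF1* took 65.3% and 64.1% against 57.5% and 58.8%, without overlap in either case. The share of *NCF1C* was 15.6% and 18.1% against 16.4% and 16.1%.

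The sum over the 3 genes does not depend on which of them a counted read was assigned to. Reads left uncounted for matching several of them would be missing from the sum as well. The sum amounted to 46 and 44 counts at 0 h, 2705 and 2521 in control and 3420 and 2867 in depleted libraries. In the same model, with the sum in place of the 3 genes, the log2 fold change was 5.91 for conversion with CTCF and 0.30 upon depletion (SE 0.06, edgeR quasi-likelihood adjusted p = 1.52e-05), under the fold threshold. The value for *NCF1* alone was 0.14. How the reads shared by the copies were counted is not given in the sources used here, and the part of read assignment in the rise of *NCF1B* was not tested.

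**Figure D5:**
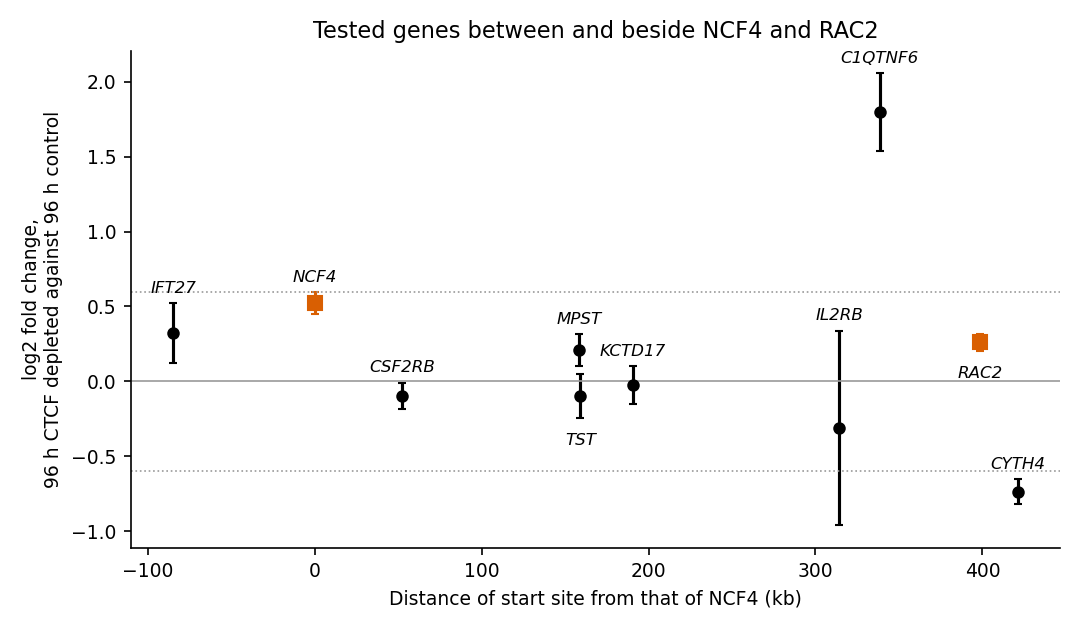
Log2 fold changes upon CTCF depletion at 96 h of the 10 tested genes around *NCF4* and *RAC2* (squares) on chromosome 22. The horizontal axis gives the distance of each start site from that of *NCF4* in kb. Bars are 1 SE, derived from the edgeR F statistic, and dotted lines mark 0.6. *C1QTNF6* lies at 1.80 and *CYTH4* at -0.74, beyond the thresholds on opposite sides, and the other genes between them.

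*NCF4* and *RAC2* share a stretch of chromosome 22, with start sites 398.6 kb apart. Of the 15 genes in the table from 100 kb outside one to 100 kb outside the other, 10 were tested. *CYTH4*, whose start site is 22.4 kb from that of *RAC2* and which encodes an exchange factor for ARF GTPases, rose with *RAC2* during conversion with CTCF (8.96 to 57.0 CPM, log2 fold change 2.67) but fell upon depletion to 34.2 CPM, by -0.74 (SE 0.08, edgeR quasi-likelihood adjusted p = 6.81e-11). *C1QTNF6*, 60.2 kb from *RAC2* and encoding a secreted protein of the C1q and TNF family, was called higher upon depletion, with 2.41 CPM in control and 8.36 CPM in depleted libraries (log2 fold change 1.80, edgeR quasi-likelihood adjusted p = 6.92e-08). The GTPase gene thus lay between neighbours that were called in opposite directions, while its own change of 0.26 was not called. *CSF2RB*, encoding the shared beta chain of the receptors for GM-CSF, IL-3 and IL-5, starts 52.6 kb from *NCF4* and had a log2 fold change of -0.10 upon depletion, and *MPST*, *TST*, *KCTD17*, *IFT27* and *IL2RB* had 0.21, -0.10, -0.03, 0.32 and -0.31, none of them called.

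Neighbours of the other members were those with a start site within 250 kb. *CYBB* has 6 in the table, of which 1 could be tested, *DYNLT3*, a dynein light chain gene 67.6 kb away on the minus strand. It was at 10.96 CPM at 0 h, 8.98 CPM in control and 24.9 CPM in depleted libraries, and it was called higher upon depletion (log2 fold change 1.47, SE 0.14, edgeR quasi-likelihood adjusted p = 1.95e-13), whereas *CYBB* was lower. Around *CYBA*, 3 of 12 tested neighbours were called lower upon depletion, *SNAI3* (log2 fold change -1.23), *CDT1* (-0.68) and *MVD* (-0.62), and 0 higher, at a *CYBA* value of 0.15. Around *NCF1*, 1 of 5 tested neighbours was called, *GATSL2* with -0.90. The background of these counts is 7.03% lower and 5.41% higher.

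Genes that act with the oxidase were described from lists of known components. Among other core and assembly factors, 3 could be tested: *RAC1*, *C17orf62* (the chaperone of the flavocytochrome, also named CYBC1) and *RAP1A*, a GTPase that copurifies with it. *RAP1A* was called higher in the control conversion (log2 fold change 0.73), and none of the 3 was called upon depletion, where *C17orf62* had 93.4 CPM in control and 86.2 CPM in depleted libraries. Of the 10 other NADPH oxidases and their partners, 2 had enough counts. *NOX3*, the oxidase of the inner ear, had 56 and 83 counts at 0 h, 4 and 9 in control and 2 and 0 in depleted libraries, and *NOXA1*, an activator of NOX1, had 2 and 5 counts in control and 25 and 20 in depleted libraries (log2 fold change 2.67, edgeR quasi-likelihood adjusted p = 7.94e-05). The catalytic genes *NOX1* and *NOX5* had no count in any library, and *NOX4* had 1 count in all.

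The step from receptor to oxidase was covered by receptors, kinases and exchange factors. Of 16 tested receptors, 15 were called higher in the control conversion, among them the integrin chains *ITGB2* (log2 fold change 4.31) and *ITGAM* (7.91), and 0 lower, where 25.4% of all tested genes were higher and 22.9% lower. Upon depletion 1 was called higher, *ITGAM* at 1.15, and 2 lower, the beta-glucan receptor gene *CLEC7A* at -0.71 and *TLR2* at -0.84, where 5.41% of all tested genes were higher and 7.03% lower. Of 26 kinases and lipid enzymes, 8 were called higher in the control conversion, a share near the 25.4% of all tested genes, and 2 lower, where 22.9% of all were. *PRKCB*, a kinase that phosphorylates p47phox, rose by 6.18 and had 0.12 upon depletion, not called. *PRKCA*, another kinase of the same family, rose by 2.46 in conversion and was called lower upon depletion, from 201.3 ± 4.29 to 80.7 ± 1.73 CPM (log2 fold change -1.32, SE 0.06, edgeR quasi-likelihood adjusted p = 1.57e-25). *PIK3CB* (-0.61) was the other called lower, and the phospholipase genes *PLD2* (0.85) and *PLA2G4A* (2.00) were called higher, so that 2 of 26 were called in each direction, near the 7.03% lower and 5.41% higher over all genes.

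Of 26 tested Rac GTPases with their exchange factors and inhibitors, 12 were called higher and 4 lower in the control conversion (25.4% and 22.9% of all tested genes), led by *PREX1* (5.20), an exchange factor for Rac2. Upon depletion 0 were called higher and 4 lower (5.41% and 7.03% of all tested genes): *DEF6* (-1.08), *SWAP70* (-0.82), *CHN2* (-1.38) and *RAC3* (-1.04). *DEF6* and *SWAP70* encode related Rac exchange factors, and *DEF6* had 60.7 ± 0.277 CPM in control and 28.8 ± 0.484 CPM in depleted libraries. The median of the list upon depletion was -0.034, beside -0.031 for all tested genes.

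Downstream of the enzyme, 17 genes of superoxide handling and charge balance were tested, of which 7 were called higher and 5 lower in the control conversion, where 25.4% and 22.9% of all tested genes were. *HVCN1*, the proton channel that balances the charge moved by the oxidase, rose by 2.68, and the glutathione peroxidase gene *GPX1* by 2.22, whereas *PRDX1* (-1.61) and *SOD1* (-1.24) fell. Upon depletion, *GSR* (0.70) and *PRDX5* (0.74) were called higher and *MPO* (-0.70) lower, where 5.41% of all tested genes were higher and 7.03% lower, and *HVCN1* was at 53.1 against 38.3 CPM (log2 fold change -0.47), under the fold threshold. Among 10 tested genes of NADPH supply, 5 were called higher in the control conversion, including *PGD* (1.19) and *TALDO1* (1.01) of the pentose phosphate pathway, and 1 lower, *IDH2* (-1.08), against the same background. None of the 10 was called upon depletion.

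Transcription factors described at oxidase promoters completed the lists. Of 17 tested, 9 were called higher and 0 lower in the control conversion, where 25.4% and 22.9% of all tested genes were. Upon depletion, 4 were called lower and 0 higher, where 7.03% and 5.41% of all tested genes were: *IRF8* (-1.06), *JUNB* (-1.04), *CEBPD* (-1.56) and *IRF1* (-0.73). The list median was -0.255, beside -0.031 for all tested genes. *SPI1*, which encodes PU.1, had 321.1 and 316.1 CPM in control and 270.8 and 263.2 CPM in depleted libraries, a log2 fold change of -0.26 (SE 0.05, edgeR quasi-likelihood adjusted p = 1.42e-05) that was under the fold threshold. Like *CYBB*, with 11.38 in the control conversion and -0.93 upon depletion, several of these factors had a positive and then a negative log2 fold change: 7.71 and -1.56 for *CEBPD*, 4.78 and -1.06 for *IRF8*, 2.70 and -1.04 for *JUNB*, and 2.90 and -0.26 for *SPI1*. Both comparisons use the same control libraries, and a part of these factors in the change of *CYBB* was not tested.

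For each member, the genes with the most similar pattern were sought among 10149 genes with a mean of at least 100 counts, by the Euclidean distance between log2 CPM values centred over the 6 libraries. The nearest to *CYBB* were *TDRD9* (distance 0.864), *CLEC12A* (1.06) and *SPP1* (1.20), and *TDRD9* had a log2 fold change of -0.42 upon depletion beside -0.93 for *CYBB*. *NCF1* was nearest to *PIWIL4* (0.241), *PLEC* (0.279) and *ID2* (0.280). The pattern of *NCF4*, lower in control and intermediate in depleted libraries, was nearest to *DENND6B* (0.104), *NFATC4* (0.112) and *PCBP4* (0.164), *RAC2* to *RASAL3* (0.0841), *HERC3* (0.0946) and *XBP1* (0.106), and *CYBA* to *BCL10* (0.0643), *FAH* (0.0823) and *CAPZA2* (0.0855). Distances over 6 libraries of 3 conditions describe likeness only.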

How the data were processed

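RNA-seq counts per gene were made by the authors and deposited without normalization. According to the methods and the submitters' processing notes, reads were aligned to hg38 with STAR 2.6.1d in the nf-core/rnaseq pipeline and counted with featureCounts 2.0.6 over protein-coding exons. The deposited counts nevertheless include genes that are not protein-coding, among them the pseudogenes *NCF1B* and *NCF1C*. The annotation release, the strand setting and the treatment of reads with several matches are not given in the sources used here. The kit marks strand.

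Counts were analysed with edgeR 4.0.16 in R 4.3.3. After filterByExpr and TMM scaling, the 6 libraries were fitted together by quasi-likelihood, with a single factor for condition. P-values were adjusted over the 14758 genes tested with the Benjamini-Hochberg method. Total counts were 9273470 to 12718780 per library, and counting intervals cover counting error only, since reads carry no molecular identifiers. In simulated data for CTCF depletion, with 14374 genes of which 200 were changed by 1.5 (log2), 200 were recovered with 1 false call. The changed genes were drawn from well-counted genes, all genes shared a single estimate of the spread, and no conversion effect was simulated. The simulation therefore does not show how smaller changes or genes with few counts are called. The chi-square per degree of freedom between replicates was 1.71 to 2.69, and they were kept as separate samples.

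Positions, start sites and lengths came from GENCODE release 44, joined by symbol or RefSeq synonym (23695 symbols, 78.9%). Promoter sequences came from RefSeq (3 of 5 members matched), and exon sequences from hg38. Summaries were made with Python 3.11.15, pandas 2.3.3, numpy 2.4.6 and scipy 1.17.1, plots with matplotlib 3.10.9.

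Alternatives were DESeq2 1.42.0 (the tool of the study), RLE and upper-quartile scaling, other filters and thresholds, glmTreat, 4 libraries, a replicate block, each library left out, summed *NCF1* copies and other lengths; canonical transcript lengths were added after seeing the data. Named were the members, the *NCF1* copies, list genes past both thresholds (at most the 4 of smallest adjusted p in each direction), tested genes of the chromosome 22 stretch, called neighbours and the 3 genes nearest in pattern; other genes, among them genes at or near 0 and pathway genes with their values in a second comparison, were chosen after their values were seen. The members and lists were chosen with earlier results of these data known. For 3 genes of the lists, values are not reported here.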

Additional observations from a re-analysis of the deposited data

How the results depend on the processing

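The settings compared were DESeq2, scaling, filters, fits of 4 libraries, thresholds, glmTreat, each library left out and gene lengths. Of 255 combinations of a member's log2 fold change and a setting, 236 kept the direction and the side of the threshold, 17 were newly past it, 2 were no longer past it and none reversed. Without a fold threshold, *CYBA* (0.45) was newly past the threshold in the control conversion. Upon depletion this held for *NCF4* (0.52), *RAC2* (0.26) and, at an adjusted p below 0.05, *CYBA* (0.15). In the conversion without CTCF it held for *CYBA* (0.60) and *NCF4* (-0.32). The control conversion then had 4 members higher, where 5096 (adjusted p below 0.01) or 5612 (below 0.05) of the 14758 tested genes were higher. Upon depletion 2 members were higher at an adjusted p below 0.01, where 12.0% of all tested genes were higher and 17.4% lower. At an absolute log2 fold change above 1, *NCF4* (-0.85) in the control conversion and *CYBB* (-0.93) upon depletion were no longer called, which left 0 members lower in each. With at least 10 counts in every library, *CYBB* was removed by its 2 and 8 counts at 0 h, which left 0 members lower upon depletion and 2 in place of 3 higher in the control conversion. *CYBA* in the conversion without CTCF was called with RLE scaling (0.605), with at least 10 counts in every library (0.62) and in a fit of 4 libraries (0.602), and it ranged from 0.48 to 0.73 when one library was left out. When one library was left out, *CYBB* ranged from 10.92 to 12.37 in the control conversion. Upon depletion, *CYBB* ranged from -0.95 to -0.84 when one library was left out. The ratio of *CYBB* to *CYBA* per length was 2.83 in control and 1.34 in depleted libraries with the longest transcript, and 0.000477, 0.994 and 0.47 at 0 h, in control and in depleted libraries with the canonical one. Upper-quartile scaling moved the median of all genes by -0.117 in the control conversion, where no member changed its call.

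Libraries with the same replicate number did not deviate together, with correlations of -0.0194, 0.0109 and -0.0294 between groups. With the replicate block, *CYBB* had a log2 fold change of -0.93 upon depletion, and the counts of members called were 3 higher and 1 lower, 0 and 1, and 3 and 0 in the 3 comparisons, as without it. Depth limits *CYBB* at 0 h, where 10 counts set its fold. Groups of 2 libraries could not be tested for outlying samples.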
